A study of Mus musculus with 4 samples.

Results

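The subunit genes of the IL-12 cytokine family were examined in mouse dendritic cells (DCs) that had or lacked liver X receptors (LXRs), oxysterol-activated nuclear receptors. The members were all probe sets of the arrays annotated to exactly 1 of the symbols Il12a, Il12b, Il23a, Il27 and Ebi3. This rule found 5 probe sets for 4 of the 5 genes, among 34945 probe sets with 1 gene symbol, which stand for 18193 genes. Il12b had 2 probe sets and Il12a, Il23a and Ebi3 had 1 each. Il27 had no probe set under this rule and was not analysed here.

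The DCs were grown from bone marrow of C57/BL6 mice for 6 to 7 days with the growth factor GM-CSF at 20 ng/mL and were enriched on beads for the integrin CD11c. One genotype was wild-type (WT) and the other, LXR-DKO, lacked LXRα and LXRβ together. Each genotype was then kept for 24 h with GM-CSF at 10 ng/mL, alone as the control or together with lipopolysaccharide (LPS), the bacterial ligand of Toll-like receptor 4, at 100 ng/mL to mature the cells. The 4 groups are therefore WT control, WT LPS, LXR-DKO control and LXR-DKO LPS, with GM-CSF in every culture and 1 array per group. No difference below has a replicate check and no p-value was computed, so precision is limited by having 1 array for each. The labels do not say how many mice gave each culture, and the LXR-DKO marrow came from mice that already lacked both receptors.

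Family members are made of a helical chain bound to a chain that resembles a soluble receptor. IL-12 joins p35, from Il12a, to p40, from Il12b. IL-23 joins p19, from Il23a, to the same p40. IL-27 joins p28, from Il27, to EBI3, and IL-35 joins p35 to EBI3. Mature DCs are known as a source of IL-12, which drives type 1 T helper cells, and of IL-23, which sustains T cells that make IL-17. The chains are made from separate genes, and p40 is known to be transcribed through NF-kappaB, C/EBP and interferon regulatory factors after Toll-like receptor signals.

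The windows just upstream of the starts of Il12b, Ebi3 and Il12a are shown to set the letters of members with unlike responses side by side. The RefSeq table used here gave windows for these 3 members, and those of Il23a and Il27 were not analysed here. Each holds the 250 bases before a RefSeq start of assembly GRCm38.p6, on the plus strand and 5′ to 3′. Il12b lies on chromosome 11 with its window at chr11:44399813-44400062, Ebi3 on chromosome 17 with its window at chr17:55952373-55952622, and Il12a on chromosome 3 with the window of its more upstream start at chr3:68690394-68690643. Il23a lies on chromosome 10 from 128296140 to 128298084. Capitals mark matches on either strand to GGNNNTTCC, a kappaB pattern, GGGAATTT, a kappaB half-site pattern, TTGCAAT, a C/EBP-like pattern, TGANTCA, the AP-1 pattern, TATANAA, a core promoter box pattern, a pair of GAAA on 1 strand set 2 bases apart, as interferon regulatory factors bind, and a pair of AGGTCA set 4 bases apart, the element of LXRs. The letters of the kappaB half-site, C/EBP-like and core promoter box patterns were chosen after the Il12b window had been read. No capital letters of different patterns overlap.
Il12b: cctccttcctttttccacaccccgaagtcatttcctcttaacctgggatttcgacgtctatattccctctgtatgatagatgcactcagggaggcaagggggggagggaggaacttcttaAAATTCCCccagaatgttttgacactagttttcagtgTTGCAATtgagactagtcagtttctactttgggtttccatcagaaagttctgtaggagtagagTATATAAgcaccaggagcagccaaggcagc
Ebi3: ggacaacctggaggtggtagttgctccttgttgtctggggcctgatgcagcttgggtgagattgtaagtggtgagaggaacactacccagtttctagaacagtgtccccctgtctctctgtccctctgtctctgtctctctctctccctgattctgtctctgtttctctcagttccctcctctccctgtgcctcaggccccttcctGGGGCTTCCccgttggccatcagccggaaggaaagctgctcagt
Il12a: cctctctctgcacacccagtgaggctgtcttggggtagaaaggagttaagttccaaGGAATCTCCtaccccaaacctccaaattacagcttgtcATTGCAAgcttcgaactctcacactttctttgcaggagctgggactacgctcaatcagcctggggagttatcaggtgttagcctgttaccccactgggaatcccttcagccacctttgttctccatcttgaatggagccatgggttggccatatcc

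The Il12b window held 3 matches. They were the kappaB half-site pattern on the minus strand from 130 to 123 bases before the start, the C/EBP-like pattern from 93 to 87 bases and the core promoter box pattern from 30 to 24 bases. The Ebi3 window held 1 match, to the kappaB pattern from 44 to 36 bases before the start. The Il12a window held a kappaB match from 194 to 186 bases and a C/EBP-like match from 156 to 150 bases, both on the minus strand, and the window of a second Il12a start held 0 matches. Of 32851 such windows in the table, 15.7% held the kappaB pattern, 0.84% the half-site pattern, 1.96% the C/EBP-like pattern and 10.4% the core promoter box pattern. The AP-1 pattern, in 6.75% of all windows, the GAAA pair, in 2.98%, and the paired AGGTCA, in 5 windows of the whole table, were not matched in the members' windows. A match is a description of letters, and a pattern without one says only that those letters are not in that window.

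Signals are MAS5 intensities on a linear scale. The floor of 28.9 is the median of all non-control signals, and signals under it have no order among themselves. A ratio that uses the floor is a lower limit and is given as "at least", and a gene was counted as different from a 2-fold ratio, or 1 on the log2 scale, upwards.

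Facts that touch every genotype comparison come first. The arrays had the same trimmed mean, and 47.8% to 52.6% of their probe sets reached the floor. Nr1h3, the gene of LXRα, read 108.6 for the WT control, 54.5 for WT LPS, 40.4 for the LXR-DKO control and 27.0 for LXR-DKO LPS, and whether its probe set lies in the deleted part was not known. Itgax, which encodes CD11c, lay between 3848.1 and 6093.0 on all 4 arrays. Of the other conventional DC markers, Flt3 was below the floor on 3 of the 4 arrays and Xcr1 on all 4. Dpp4 was below it in both WT cultures, and Itgae and Cd209a in WT LPS. Zbtb46, H2-Ab1, Ciita, Batf3 and Irf8 reached it on every array, Zbtb46 only just in WT LPS. Zbtb46, a factor of conventional DCs, was at 39.4 and 29.0 in WT and at 305.9 and 393.3 in LXR-DKO. Xist, expressed from the inactive X chromosome of female cells, was at 30.8 and 22.7 in WT and at 2750.0 and 2090.4 in LXR-DKO, while the Y-linked gene Eif2s3y was at 736.6 and 721.0 in WT and at 279.6 and 384.3 in LXR-DKO. Kdm5d, also Y-linked, was at 126.2 and 98.1 in WT and at 56.1 and 93.2 in LXR-DKO. The LXR-DKO cultures thus had both Xist and Y-linked signals above the floor, and whether their donors were of both sexes was not tested. Sex of the donor mice and genotype cannot be told apart here. The 18S ribosomal RNA control nearest the 5′ end had a signal of 2025.2 in WT LPS, 510.6 in WT control and at most 77.4 in LXR-DKO.

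With LPS, the p40 gene Il12b was far higher in cells without LXRs than in WT cells. Its brighter probe set read 21.7 for the WT control, 61.0 for WT LPS, 34.9 for the LXR-DKO control and 1016.2 for LXR-DKO LPS. The dimmer probe set read 10.7, 43.2, 19.9 and 598.1 on the same arrays. LXR-DKO LPS thus stood apart from the other 3 cultures by both probe sets, WT LPS was next, and both controls lay at or near the floor. On the brighter probe set the LPS response was at least 2.11-fold for WT cells and 29.1-fold, or 4.86 on the log2 scale, for LXR-DKO cells. LXR-DKO exceeded WT 16.7-fold with LPS, a log2 ratio of 4.06, against 13.8-fold on the dimmer probe set. Probe sets that share a gene differed in this log2 ratio by 0.54 (SD over 4584 genes), the only internal error. It covers differences within an array and not between cultures.

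The WT response of Il12b was less firm. On the dimmer probe set, with its WT control of 10.7 set to the floor, the lower limit was 1.49-fold. With the median of both probe sets the log2 ratio was 0.83, also a lower limit. Neither settles whether the response passed 2-fold. As deposited the ratios were 2.81-fold on the brighter and 4.04-fold on the dimmer probe set, both from WT control signals below the floor. Without LPS the 2 genotypes differed by at least 1.21-fold in Il12b. This lower limit, 0.27 on the log2 scale, was under the probe set spread of 0.45, but the ratio was 0.69 with a floor of 8.8. Whether the control cultures differed in Il12b is thus not settled. The log2 LPS response was larger in LXR-DKO than in WT by 3.79 with the WT control set to the floor, and by 3.37 with a floor of 8.8, the 25th percentile of all signals. The size of this difference thus depends on where a WT control signal below the floor is set.

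Il12a, the gene of p35, was higher with LPS in both genotypes. Its probe set, whose suffix marks transcripts of 1 gene as shared targets, read 9.5 for the WT control, 227.8 for WT LPS, 15.6 for the LXR-DKO control and 502.3 for LXR-DKO LPS. The control cultures were both below the floor and the LPS cultures both well above it, so the groups separated by LPS first and by genotype second. The LPS response was at least 7.88-fold for WT cells and at least 17.4-fold for LXR-DKO cells. With LPS, LXR-DKO exceeded WT 2.21-fold (1.14 on the log2 scale), beyond the spread of 0.54 but only just past the threshold. That ratio was under 2-fold with arrays set to a common 75th percentile, at 0.85 on the log2 scale, and after quantile normalization, at 0.95. The difference of the log2 LPS responses was also 1.14, since both controls sat at the floor, but only 0.43 with a floor of 8.8. Il12a and Il12b were thus unlike: p40 differed between the LPS cultures by a log2 ratio of 4.06 and p35 by 1.14.

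Il23a, the gene of the IL-23 chain p19, reached the floor on 1 array only. It read 5.1 for the WT control, 13.7 for WT LPS, 5.2 for the LXR-DKO control and 104.5 for LXR-DKO LPS. Only the LXR-DKO LPS value can be placed above the others, which were all under the floor and have no order. The LPS response in LXR-DKO and the excess of LXR-DKO over WT with LPS were both at least 3.62-fold, a log2 ratio of 1.85 for each. No ratio was given for WT or for the controls. Il23a and Il12b, the genes of the 2 chains of IL-23, thus both had their highest signal in LXR-DKO LPS, as did Il12a and Ebi3.

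Ebi3, which encodes the receptor-like chain of IL-27 and IL-35, was the one member above the floor in every culture. It read 349.5 for the WT control, 472.9 for WT LPS, 909.2 for the LXR-DKO control and 2466.5 for LXR-DKO LPS. Both LXR-DKO cultures lay above both WT cultures, and each neighbour in this order differed by more than the probe set spread for its pair of arrays. The smallest such gap was 0.44 on the log2 scale, between the WT cultures, against a spread of 0.29. LPS went with a 1.35-fold difference in WT, short of the threshold, and a 2.71-fold difference in LXR-DKO. LXR-DKO exceeded WT 2.60-fold without LPS and 5.22-fold with LPS. The difference of the log2 responses was 1.004, at the threshold, and was 0.90 with arrays set to a common 75th percentile and 0.93 with ratios centred on their median.

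**Figure D1:**
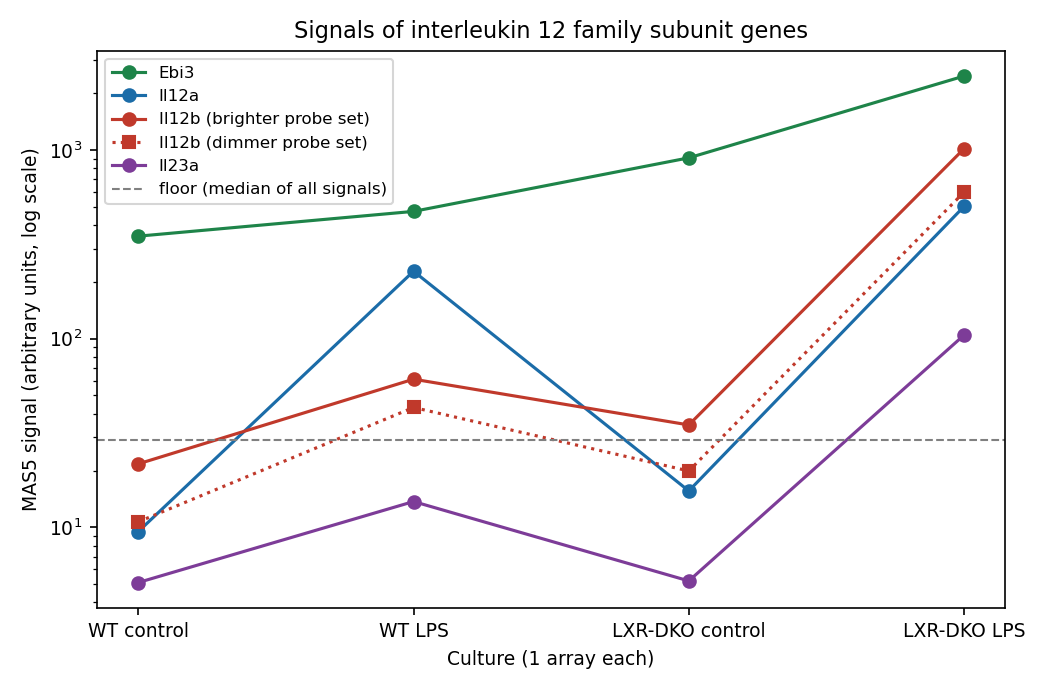
MAS5 signal on a log axis for each of the 5 probe sets on the 4 arrays, 1 array per culture, with the floor of 28.9 as a dashed line. Both Il12b probe sets are highest in LXR-DKO LPS, at 1016.2 and 598.1, Il12a is above the floor in both LPS cultures, Il23a only in LXR-DKO LPS, and Ebi3 in every culture.

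Counted over genes, 2 of the 3 members measured in WT passed 2-fold upwards with LPS, where 2.93% of all measured genes did, and 0 were lower, against 4.79%. Those 2 were Il12a and Il12b, whose WT controls were below the floor, so they were measured only through WT LPS and could not have been counted as lower. The count was 0 with a floor of 177.4, the 75th percentile. For LXR-DKO, 4 of 4 were higher, against 6.23% of all genes, and 0 lower, against 1.82%. Il12a and Il23a were measured there only through LXR-DKO LPS, which leaves Il12b and Ebi3 as the members measured in both of its cultures. The median log2 response over all genes was -0.05 for WT and 0.02 for LXR-DKO.

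**Figure D2:**
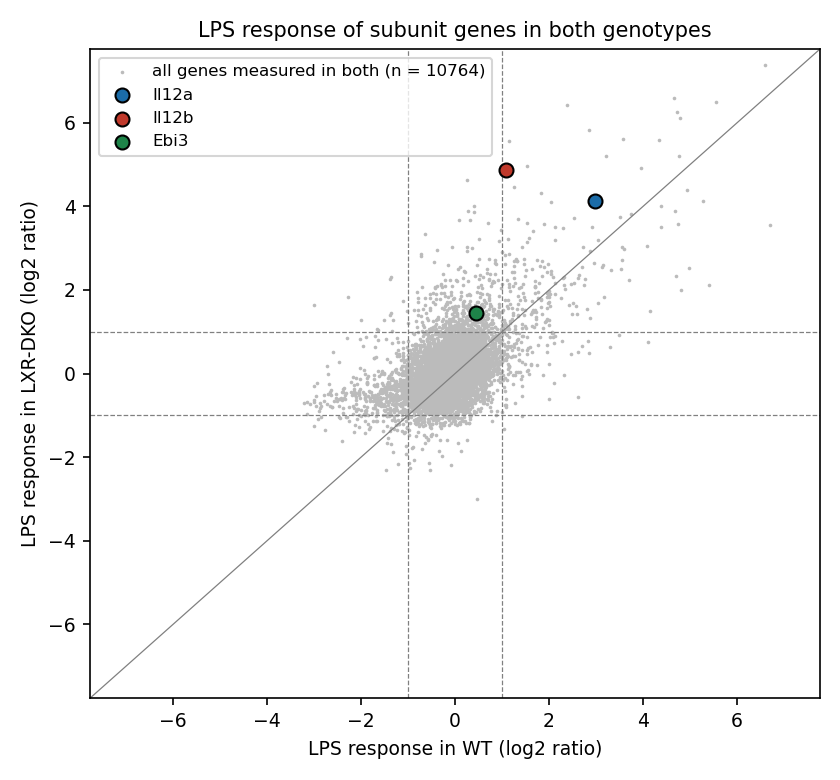
Log2 LPS response in WT (x) and in LXR-DKO (y) for 10764 genes measured in both genotypes, in grey, with the members in colour, dashed lines at 2-fold and the line of equal response. Il12b (1.08, 4.86), Il12a (2.98, 4.12) and Ebi3 (0.44, 1.44) lie above the line of equal response, and Il23a is absent because it was not measured in WT.

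Between genotypes, 1 of the 2 members measured without LPS, Ebi3, passed 2-fold upwards in LXR-DKO, where 12.7% of all genes did, and 0 were lower, against 9.28%. The other, Il12b, was measured there only through the LXR-DKO control and could not have been counted as lower. With LPS, 4 of 4 were higher, against 17.8% of all genes, and 0 lower, against 8.76%. Il23a was measured only through LXR-DKO LPS and could not have been lower, which leaves Il12a, Il12b and Ebi3 as the members measured in both LPS cultures. The count was 3 with a common 75th percentile and after quantile normalization, where Il12a was under 2-fold. The median log2 ratio over all genes with LPS was 0.15, and it was -0.11 with a common 75th percentile and 0.43 with arrays scaled to hybridisation controls. The same scalings took the median of all genes from 0.05 to -0.12 and 0.26 without LPS, and from -0.05 to 0.07 and -0.17 for the response in WT. For the difference of the LPS responses, 7.61% of all genes were at least 2-fold larger in LXR-DKO and 2.07% smaller. All 4 members were on the larger side, but the side of Il23a was fixed, since it reached the floor on the LXR-DKO LPS array alone. Of the others, Il12a and Ebi3 were under 2-fold with a common 75th percentile and Il12b was not. These comparisons share arrays with each other and are not independent of one another.

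Scaling also moved the background. Genes higher were 67.0% of those counted with LPS between genotypes, but 47.2% with a common 75th percentile, 55.3% after quantile normalization and 83.2% under scaling to hybridisation controls. Without LPS the share was 57.7%, but 44.2% and 72.7% under the first and last of these. For the LPS response in WT it was 38.0%, or 50.3% with the common 75th percentile, and for the difference of the responses 78.6%, or 68.4% after quantile normalization.

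**Figure D3:**
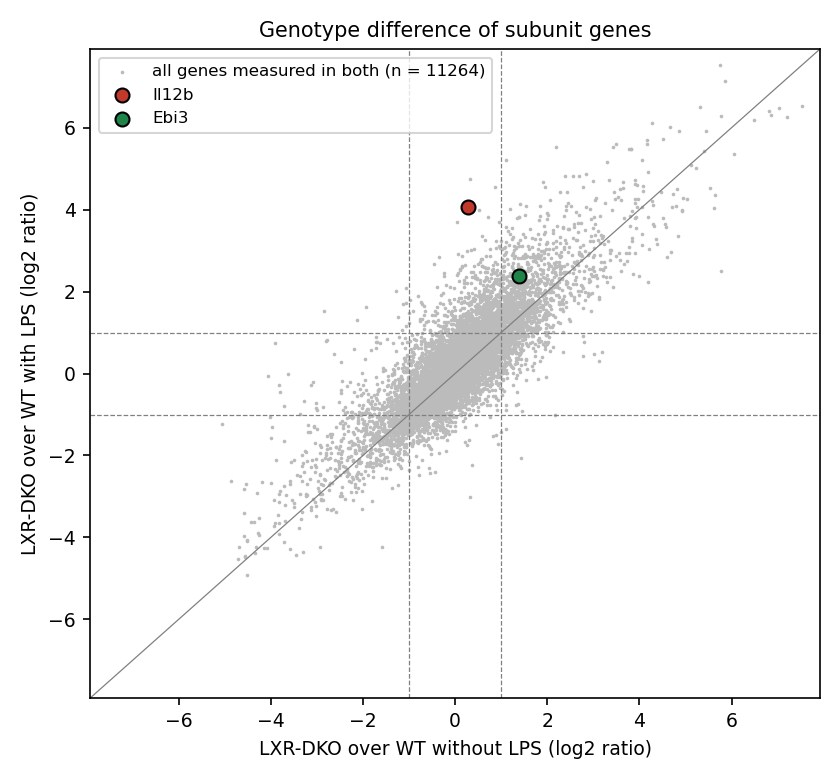
Log2 ratio of LXR-DKO over WT without LPS (x) and with LPS (y) for 11264 genes measured in both conditions, in grey, with Il12b and Ebi3 in colour and dashed lines at 2-fold. Il12b moves from 0.27 to 4.06 and Ebi3 from 1.38 to 2.38, and Il12a and Il23a are absent because they were not measured without LPS.

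Marker genes of several cell types differed between the same cultures. Of 11 conventional DC markers with a probe set, the number at or above the floor was 8 for the WT control, 6 for WT LPS, 9 for the LXR-DKO control and 10 for LXR-DKO LPS, and their summed signals were 8717.2, 8995.6, 18937.2 and 21851.6. The 7 neutrophil markers summed to 1858.2 and 1964.5 in WT and to 17455.1 and 16643.6 in LXR-DKO, and Ngp and Ltf were below the floor in both WT cultures. The 9 macrophage and monocyte markers summed to 21019.2, 26555.9, 37731.9 and 26224.9. The like sums of the LPS cultures hide differences in both directions. C1qa, C1qb and C1qc were below the floor in WT LPS, at 1.5, 1.8 and 0.8. In LXR-DKO LPS the same genes were at 2680.3, 4087 and 2566.9. Cd68 went the other way, at 8902.7 in WT LPS and 2139.2 in LXR-DKO LPS. With LPS, 5 of these 9 markers passed 2-fold upwards in LXR-DKO and 1 downwards. The 7 markers of mast cells, basophils and eosinophils summed to 429.8 and 229.5 in WT and to 1431.9 and 2141.2 in LXR-DKO. The 5 B cell markers summed to 301.7, 335.7, 619.7 and 1956.5, with Cd79a, Cd79b and Ms4a1 below the floor in both WT cultures. The 5 T and NK cell markers summed to 39.3, 56.3, 85.6 and 108.6 and were below the floor in all 4 cultures except for Cd3d and Cd3g at 31.6 and 29.3 in LXR-DKO LPS. The 4 plasmacytoid DC markers summed to 806.4, 3714.7, 741.2 and 2008.5, of which Bst2 alone gave 589.7, 3509.9, 469.7 and 1447.8. Ccr9 was below the floor throughout and Siglech reached 31.2 in LXR-DKO LPS alone. The part of these cells in the subunit differences was not tested, and in such bulk RNA fewer cells of a type and less RNA per cell cannot be told apart.

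Genes of LPS sensing lie upstream of the subunits. Of the 9 genes of TLR4 sensing with a probe set, 1 of 9 measured passed 2-fold upwards with LPS for WT and 3 of 8 for LXR-DKO. Of all genes, 2.93% and 6.23% did. Between genotypes 0 were higher and 1 was lower, both without and with LPS. Of all genes, 12.7% and 17.8% were higher and 9.28% and 8.76% lower, so that these counts are near the background. The median log2 ratio of the sensing genes between genotypes with LPS was -0.02. The highest was that of the adaptor gene Ticam1, named after its values were seen, at 0.65. Tlr4 itself was lower in LXR-DKO with LPS, at 563.0 against 1165.1, a log2 ratio of -1.05. Ly96, the co-receptor that binds LPS beside TLR4, was lower without LPS, at 166.3 against 372.3. Cd14, which delivers LPS to this receptor, was high with LPS in both genotypes, at 10288.6 for WT and 9570.3 for LXR-DKO. Traf6, an adaptor of the pathway, had log2 LPS responses of 0.54 and 1.07.

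Among transcription factors that act at the subunit genes, 6 of 16 passed 2-fold upwards in LXR-DKO without LPS and 7 of 16 with LPS. Of all genes, 12.7% and 17.8% did. In each, 2 were lower, near the background of 9.28% and 8.76%. The median log2 ratios of these factors were 0.86 and 0.95. For the LPS response, 1 of 16 passed in WT cells and 6 of 16 in LXR-DKO cells, against 2.93% and 6.23% of all genes. In either, 0 were lower, against 4.79% and 1.82%. Irf8, which acts with IRF1 at the Il12b promoter, read 653.5 for the WT control, 590.0 for WT LPS, 1477.8 for the LXR-DKO control and 5223.9 for LXR-DKO LPS. It was thus higher in LXR-DKO LPS than in the other 3 cultures, as Il12b was, with a log2 ratio over WT of 3.15. Nfkbiz, an NF-kappaB cofactor, went from 38.9 to 388.9 in WT and from 275.8 to 1543.2 in LXR-DKO. Irf4 was higher in LXR-DKO at log2 ratios of 2.78 without and 2.10 with LPS. Fos, a subunit of AP-1, went the other way at -4.58 and -3.39.

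Rel, Irf1, Relb and Cebpb are given because of their place in the pathway and were chosen after their values were seen. Rel, the NF-kappaB subunit c-Rel with a known role at Il12b and Il23a, lay between 133.3 and 316.0, short of 2-fold in each comparison. Irf1 was also short of 2-fold, with a log2 ratio of LXR-DKO over WT with LPS of 0.69. Relb, an NF-kappaB subunit of maturing DCs, was at 890.1 in LXR-DKO LPS against 143.2 in WT LPS. Cebpb was lower in LXR-DKO, at log2 ratios of -1.27 and -1.002.

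**Figure D4:**
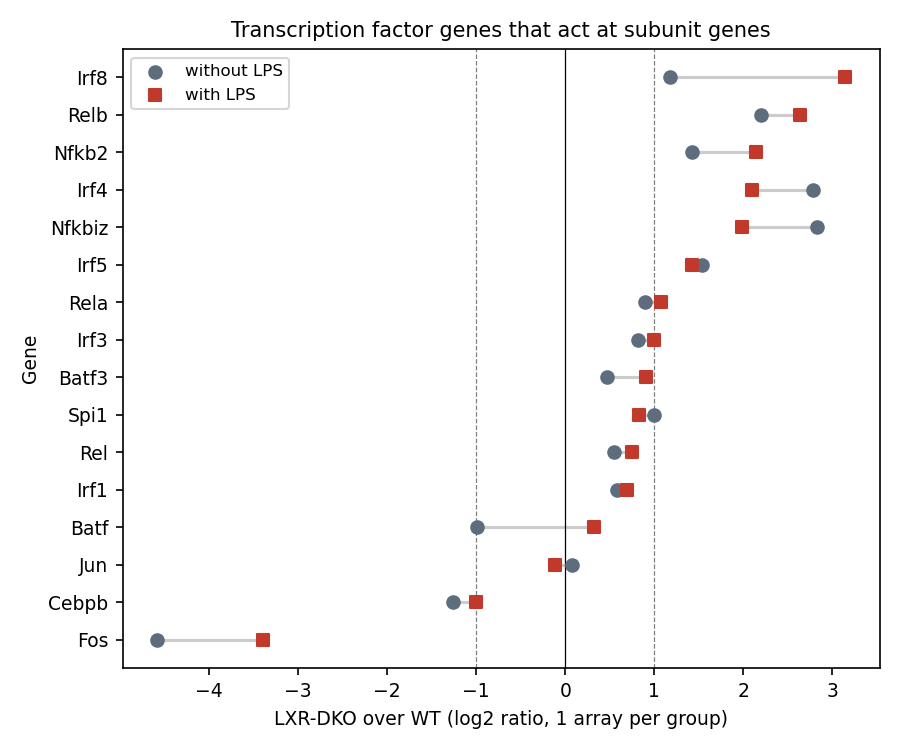
Log2 ratio of LXR-DKO over WT without LPS (circles) and with LPS (squares) for the 16 transcription factor genes with a probe set, ordered by the latter, with dashed lines at 2-fold. Irf8 is highest with LPS at 3.15 and Fos lowest at -3.39.

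Among genes that restrain subunit expression, 3 of 12 measured passed 2-fold upwards with LPS in WT, with a median of 0.59 on the log2 scale, and 9 of 13 in LXR-DKO, with a median of 1.32. Of all genes, 2.93% and 6.23% passed upwards. None of the restrainers was lower by 2-fold in either genotype, against 4.79% and 1.82% of all genes. Between genotypes 2 of 12 were higher and 5 lower in LXR-DKO without LPS, against 12.7% and 9.28% of all genes. With LPS 3 of 13 were higher and 1 lower, against 17.8% and 8.76%. The counts of higher genes, and the 1 lower with LPS, are thus near the background. Atf3, a repressor of inflammatory genes, was lower in LXR-DKO at -2.99 and -1.36 on the log2 scale. Socs3, a brake on STAT3 signals, was about as high in both LPS cultures, at 3184.6 for WT and 3425.3 for LXR-DKO. Tnfaip3, which ends NF-kappaB signalling, was at 2145.7 in WT LPS and 1804.7 in LXR-DKO LPS. Bcl3, an atypical inhibitor of NF-kappaB, was higher in LXR-DKO at 1.74 and 2.21. Il10, whose product restrains Il12b and which is named outside the rule, was below the floor in all cultures but LXR-DKO LPS, where it was at 42.5.

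Apart from Il6st, the receptor chains of the family had low signals. Of 4 chains with a probe set, 0 passed 2-fold upwards in any of these comparisons. Between 2.93% and 17.8% of all genes did, so that 0 of so few genes is near the background. The median log2 ratio of the chains with LPS between genotypes was -0.02. With LPS 1 of 4 was lower in LXR-DKO, against 8.76% of all genes. Il12rb1, the chain shared by the receptors of IL-12 and IL-23, was at 44.6 in LXR-DKO LPS against 98.4 in WT LPS, a log2 ratio of -1.14 with LPS. Il6st, the signalling chain shared by IL-27 and IL-6, lay between 423.0 and 631.0. Il12rb2 reached at most 47.1 and Il27ra at most 38.2, and Il12rb2 was below the floor in WT LPS and Il27ra in both WT cultures.

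The kinases and STATs behind these receptors were mostly higher in LXR-DKO, 4 of 5 without LPS and 3 of 5 with LPS. Of all genes, 12.7% and 17.8% were. In each, 0 were lower, against 9.28% and 8.76%. The median log2 ratios of the kinases and STATs were 1.68 and 1.49. Stat4, the STAT that carries the IL-12 signal, read 18.6 for the WT control, 40.1 for WT LPS, 186.8 for the LXR-DKO control and 1139.4 for LXR-DKO LPS. Its profile again had LXR-DKO LPS highest, with a 6.10-fold LPS response there and one of at least 1.39-fold for WT cells. Jak2 was higher in LXR-DKO at 2.75 and 2.13 on the log2 scale, and Tyk2 at 1.68 and 1.49. Stat3, which carries IL-23 and IL-27 signals, was higher at 1.03 without LPS and at 0.57 with LPS, the latter short of the threshold.

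Of the relatives of the helical chains that were measured, most were higher with LPS by 2-fold in both genotypes. Of 7 helical relatives with a probe set, 5 were measured with LPS, while Il11 and Ctf1 were below the floor in all 4 cultures. Of these, 3 passed 2-fold upwards with LPS for WT and 4 for LXR-DKO, against 2.93% and 6.23% of all genes. With LPS 1 was higher in LXR-DKO than in WT, near the background of 17.8%. Il6 read 29.3 for the WT control, 2828.7 for WT LPS, 32.7 for the LXR-DKO control and 5492.0 for LXR-DKO LPS. It was thus high with LPS in both genotypes as Il12a was, with a genotype ratio with LPS of 0.96 on the log2 scale. The granulocyte growth factor gene Csf3 had a like order, at 216.6 and 330.1 with LPS and below the floor without. The leukaemia inhibitory factor gene Lif was higher in LXR-DKO at 234.2 against 32.3 in WT with LPS. Csf3 in both genotypes and Lif in WT were measured only through the LPS culture, so they could not have been counted as lower with LPS. The oncostatin M gene Osm had log2 LPS responses of 1.21 for WT and 1.30 for LXR-DKO, while those of Clcf1 were 0.60 and -0.56. Of the receptor-like relatives of p40 and EBI3, only Il6ra reached the floor, at 49.9 to 82.6.

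Of 9 other cytokine genes that direct T cells, 3 of 7 measured passed 2-fold upwards and 2 downwards with LPS in WT. Of all genes, 2.93% and 4.79% did. In LXR-DKO 5 of 8 passed upwards and 0 downwards, against 6.23% and 1.82%. Between genotypes with LPS, 2 of 8 were higher in LXR-DKO and 1 was lower, near the background of 17.8% and 8.76%. The lower one was Tnf, at 475.2 against 1208.6. Il1b was at 9011.6 in WT LPS and 7211.8 in LXR-DKO LPS, and so was not higher in the latter. Il15, which supports NK cells and memory T cells, was higher in LXR-DKO LPS, at 322.7 against 76.0 in WT LPS. Il18, which acts together with IL-12 on T and NK cells, was highest in the WT control, at 706.5, and lowest in WT LPS, at 174.4. Ifnb1, a type 1 interferon gene, was below the floor in all 4 cultures.

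Receptors for signals that raise the subunits went both ways. Of 6 genes, 2 passed 2-fold upwards in LXR-DKO and 0 downwards without LPS, and 2 upwards and 3 downwards with LPS. Of all genes, 12.7% were higher and 9.28% lower without LPS, and 17.8% higher and 8.76% lower with LPS. Cd40, through which T cells raise IL-12 output, read 67.4 for the WT control, 331.1 for WT LPS, 211.4 for the LXR-DKO control and 1029.0 for LXR-DKO LPS. Its log2 LPS response was 2.30 in WT and 2.28 in LXR-DKO, unlike that of Il12b. The interferon receptor chains Ifngr2 and Ifnar1 were lower in LXR-DKO with LPS at -1.38 and -1.24, and Ifngr1 was higher without LPS at 1.44.

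The genes whose pattern over the 4 arrays was most like each member were found by the root mean square distance between log2 signals, floored and centred on each gene's mean, among 11858 genes. Ebi3 was closest to Dgka at 0.10, Nfkb2 at 0.10 and Tmem39a at 0.11. Nfkb2, an NF-kappaB subunit gene, read 108.7 for the WT control, 174.9 for WT LPS, 291.6 for the LXR-DKO control and 775.2 for LXR-DKO LPS, the same order of cultures as Ebi3. Il12b was closest to Itm2a at 0.31, Sema7a at 0.43 and Pla1a at 0.48. Itm2a was at 82.8 in WT LPS and 2213.6 in LXR-DKO LPS. Il12a was closest to Csf3 at 0.25, Hdc at 0.36 and Tm4sf1 at 0.38. Il23a was closest to Flt3 at 0.017, Tmem150c at 0.023 and Frzb at 0.024, but with 3 arrays at the floor this says only that all 4 genes had a signal of 100.6 to 108.5 in LXR-DKO LPS. Among the members, the distance was smallest between Il23a and Ebi3 at 0.52 and largest between Il12a and Ebi3 at 1.46, and it was 1.08 between Il12a and Il12b. The distances of Il23a depend on the floor, to which 3 of its arrays were set, so its closeness to Ebi3 is not a likeness of measured signals. Those of Il12a and Il12b depend on it too, since both Il12a controls and the WT control of Il12b were set to it. The controls of Csf3 and Tm4sf1 were also below the floor, so their closeness to Il12a rests on the LPS cultures. With 4 arrays such distances are a description.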

How the data were processed

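RNA from 4 cultures was amplified and labelled with biotin, per the labels' protocols, and hybridised to 1 array each. The deposited values are intensity values computed by the authors with MAS5, per the submitters' processing notes, whose version and settings are not given in the sources used here. They were already scaled, since the 4 arrays had the same mean once the outer 2% on either side were trimmed. After 64 control probe sets were left out, 45037 remained, of which 34945 had 1 gene symbol in the platform annotation, 932 had several and 9160 none. A gene was represented by its probe set with the highest mean signal. Signals under 28.9 were set to this floor, and a gene was measured in a comparison if 1 array reached it. Genes with a ratio of at least 2-fold were counted, and 5 comparisons were made. With Python 3.11.15, numpy 2.4.6 and pandas 2.3.3, ratios and 10 alternatives were computed, and the counting was tested on simulated data. The genes named are the members, up to 4 genes of each list with the largest ratio over the 4 simple comparisons, any needed to show both directions, and the 3 genes nearest in pattern. Promoter windows are from RefSeq. The members and lists were chosen with earlier results of these data known.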

Additional observations from a re-analysis of the deposited data

Results flagged for a closer look

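Tnfsf4, which encodes the T cell costimulatory ligand OX40L and is in the list of cytokines that direct T cells, had LPS responses of opposite sign in the genotypes. Its log2 ratio was -1.01 in WT, with signals of 124.0 and 61.5, and 1.21 in LXR-DKO, with signals of 101.0 and 233.6. With 1 array per group this difference was not tested. Of the 3 subunit genes measured in both genotypes, Il12a, Il12b and Ebi3, 0 had responses of opposite sign.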

How the results depend on the processing

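Of 161 ratios of single members under 10 alternatives, 139 moved by less than the spread between probe sets, 22 moved further and 0 reversed. The 139 include alternatives that could not move a ratio, such as another floor for Ebi3 or the median for a gene with 1 probe set. Ratios that an alternative left unmeasured are not among the 161. The tally is thus no measure of how firm the ratios are. The count of members past 2-fold upwards with LPS in WT, 2, was 1 under scaling to hybridisation controls, 1 with the median over all probe sets, 1 with probe sets without a shared-target suffix, which leaves out Il12a, and 0 with a floor of 177.4, the 75th percentile. The count for the difference of the responses, 4, was 2 with a common 75th percentile. The other counts kept within 1.5 times their value. The floor set the size of ratios with a low control: for Il12a in WT the log2 response was 0.36 with the floor of 177.4 and 4.58 with one of 8.8, the 25th percentile. Il12b in LXR-DKO over WT with LPS was 2.52 with the floor of 177.4, above its WT signal, and 4.38 under scaling to hybridisation controls. No paired analysis was possible because each group has 1 array, and leaving out a replicate was not possible either. Signals under the floor, in particular those of Il23a in WT and of all controls but Ebi3 and the LXR-DKO control of Il12b, limit what can be ordered.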
